A study of Mus musculus with 9 samples.

Results

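The comparison described here sets the bone marrow of ERG transgenic mice with leukemia against normal marrow from which most mature blood cells had been removed. It uses 6 of the 9 arrays of the series. All mice were of the strain C57BL6. The leukemia group is 3 arrays, 1 mouse each, of whole and undepleted femur marrow from ERG transgenic mice that were killed when signs of leukemia appeared. The lineage-negative group is 3 arrays, each a pool of 3 wild type marrows that went through a lineage depletion kit, so 9 mice stand behind it. The other 3 arrays hold whole marrow of 3 wild type mice that was not depleted, and their values are given only beside those of the 2 groups compared. The labels do not give the promoter or the species of the ERG transgene, the age or the sex of the mice, or the share of leukemic cells in each marrow, and a leukemic marrow keeps normal cells of the host. Depletion was done in the wild type pools alone, so leukemia and the presence of mature cells cannot be told apart in this contrast, and in marrow taken as a bulk sample fewer cells of a type and less RNA per cell cannot be told apart either.

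ERG is an ETS family transcription factor that acts in blood stem cells together with GATA2, RUNX1, TAL1, LYL1, LMO2 and FLI1, a set known as the heptad. It is known for maintaining stem cells and megakaryocyte development, and its excess drives leukemias of the myeloid, megakaryocytic and erythroid lineages. A lineage depletion kit binds antibodies against surface antigens of mature T cells, B cells, granulocytes, macrophages and red cells and keeps the unbound cells, which are stem cells, committed progenitors of every myeloid lineage, and mature cells that lack those antigens, such as basophils.

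Each value is the intensity of 1 probe set on the log2 scale, and 1 unit is a doubling. The arrays measured 19938 named genes. Differences are given as the leukemia mean minus the pool mean in log2 units ± the standard error of the fit, and an adjusted p is that of limma over all genes. A gene was called, and is written of as higher or lower, when its adjusted p was under 0.05. The median intensity of the 6 arrays lay between 32.28 and 34.08, and where the lower group averaged under the median of 33.4, the array's background limits a difference, whose size is then a minimum. The correlation of whole profiles was 0.951 to 0.962 between a leukemia and a pool, 0.971 to 0.987 among the leukemias and 0.986 to 0.995 among the pools. Leukemia 2 and pool 2 stood apart within their groups, as the results show.

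Of the 19938 genes, 589 were higher in the leukemias (2.95%) and 1144 were lower (5.74%). The lower calls were mostly small. Among calls of at least 1 log2 unit, 299 were higher and 253 lower. Higher genes made up 34.0% of all calls, and 44.0% after centring each array on its 75th percentile and 44.9% after cyclic loess. Without leukemia 2 there were 827 higher and 808 lower genes, so that 50.6% of the calls were higher and the direction with more calls turned. The balance of the calls thus depends on both the scaling and that array. The 3 leukemia arrays all lay above the 3 pools for 11.6% of genes and below them for 16.3%. In the contrasts with wild type whole marrow, which share arrays with this one, the leukemias had 14.6% of genes called higher and 9.93% called lower, and the pools 21.7% and 13%.

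The 12 genes highest in the leukemias relative to the pools were led by products of maturing neutrophils and macrophages. They were Chil3 (the chitinase-like protein Ym1), Ltf (lactoferrin), Mmp8 (neutrophil collagenase), Ifitm6, Lrg1 (a glycoprotein stored in neutrophil granules), Camp (the antimicrobial peptide cathelicidin), Ly6g, Fcgr4 (a receptor for IgG), Ms4a8a, C1qb (a chain of complement C1q), Mmp9 (gelatinase B) and Cd177. The 12 genes lowest in the leukemias were products of platelets and of basophils and eosinophils. They were Ppbp (platelet basic protein), Mcpt8 (a basophil protease), Epx (eosinophil peroxidase), Timp3 (an inhibitor of metalloproteinases), Alox12 (the platelet lipoxygenase), Myl9 (a myosin light chain), Prss34 (a basophil protease), Gp9 (a chain of the platelet receptor for von Willebrand factor), Fcer1a (the ligand-binding chain of the IgE receptor), Tubb1 (the platelet tubulin), Cpa3 (a carboxypeptidase of mast cells and basophils) and Pde5a. Wild type whole marrow lay above the leukemias in mean level for 9 of the 12 high genes, all but Fcgr4, Ms4a8a and C1qb, and lay above the leukemias for each of the 12 low genes.

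**Figure D1:**
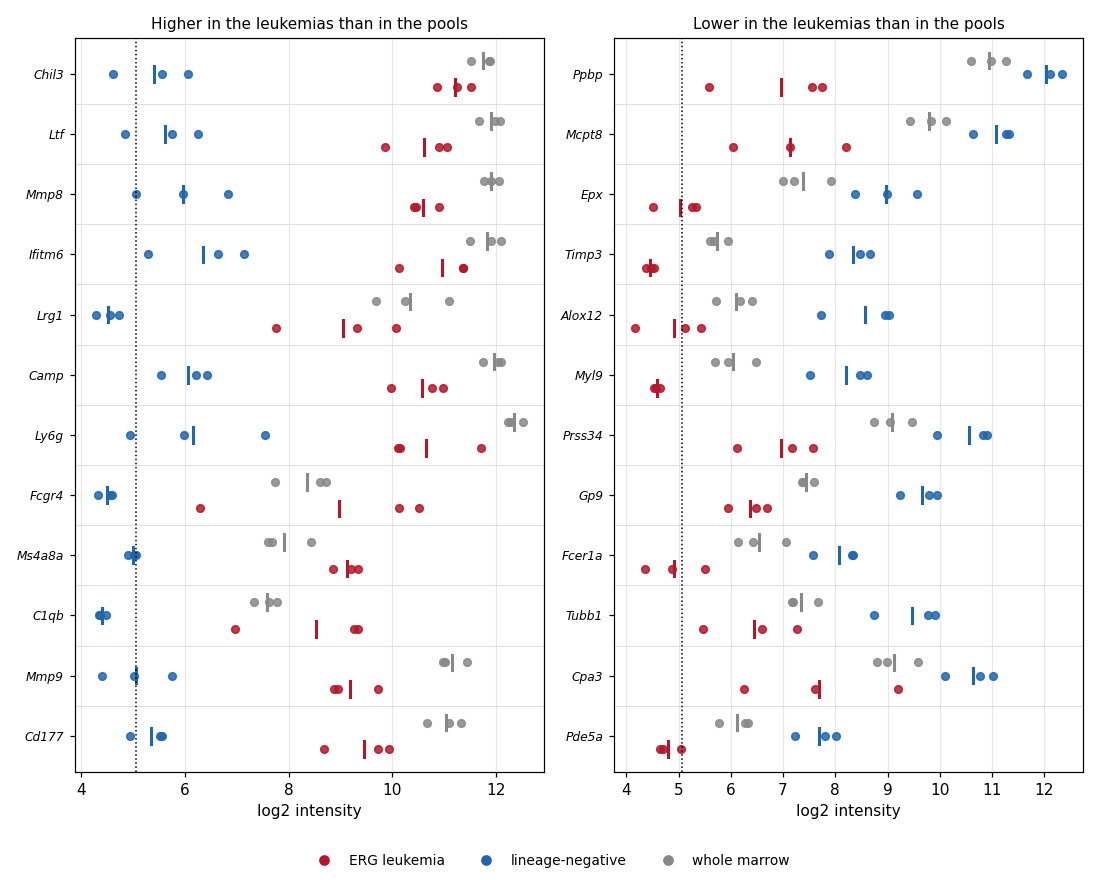
Level, in each of the 9 arrays, of 12 genes higher and 12 genes lower in the leukemias than in the pools, those of largest difference by the naming rule. The x axis is log2 intensity, each dot is an array, the short bar is a group mean and the dotted line is the median intensity of all probe sets. Leukemias lie to the right of all pools on the left side and to the left of all pools on the right side, while whole marrow lies right of the leukemias for most genes of both sides.

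Surface antigens that such kits commonly target come first, because a kit removes the cells that carry its targets. Of 6 listed genes 4 were measured, and the composition of this kit is not in the labels. Ly6g, the granulocyte antigen, read 11.71, 10.16 and 10.12 in the leukemias and 7.54, 4.94 and 5.98 in the pools. Itgam, the CD11b integrin of granulocytes and monocytes, read 9.75, 8.73 and 9.63 in the leukemias and 6.65, 5.48 and 6.01 in the pools. Both were far lower in the pools, with the 3 leukemias above the 3 pools, by 4.51 ± 0.63 (adjusted p = 0.00503) and 3.32 ± 0.33 (adjusted p = 0.00125). In whole marrow Ly6g read 12.24, 12.53 and 12.29, above each leukemia. Ptprc, the CD45 phosphatase whose B220 form is the B cell antigen, differed by 0.90 ± 0.38 (adjusted p = 0.198) with overlapping groups, and the T cell antigen Cd5 was below the median intensity in both groups.

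Genes of secondary granules and mature neutrophils formed the clearest difference. Of 28 measured genes, 26 were higher in the leukemias (92.9%, against 2.95% of all genes) and 0 were lower, with a median difference of 3.26 against 0.0072 over all genes. Chil3 read 11.25, 10.87 and 11.53 in the leukemias and 5.56, 4.60 and 6.06 in the pools. Ltf read 11.07, 9.86 and 10.90 in the leukemias and 6.26, 4.85 and 5.74 in the pools. Mmp8 read 10.91, 10.42 and 10.47 in the leukemias and 6.84, 5.06 and 5.96 in the pools. The leukemias stood above the pools without overlap for each of them, by 5.81 ± 0.34 (adjusted p = 0.000153), 4.99 ± 0.39 (adjusted p = 0.000566) and 4.65 ± 0.38 (adjusted p = 0.000566), which is a 56.1-fold, 31.9-fold and 25.1-fold difference of mean log2 levels. Pool 2 held the lowest level of each among the pools and leukemia 2 was the lowest of the leukemias for Chil3, Ltf and Mmp8.

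The alarmin pair S100a8 and S100a9, which neutrophils hold in their cytosol, differed by 3.85 ± 0.36 (adjusted p = 0.00101) and 4.04 ± 0.28 (adjusted p = 0.00037). Lcn2, the iron-binding lipocalin of secondary granules, read 11.96, 11.62 and 12.02 in the leukemias and 9.03, 7.26 and 8.93 in the pools, and Ngp read 11.74, 11.14 and 11.72 in the leukemias and 8.73, 6.74 and 8.29 in the pools. Camp differed by 4.51 ± 0.29, Cd177 by 4.12 ± 0.33 and Mmp9 by 4.13 ± 0.34. The chemokine receptor Cxcr2, which guides neutrophils out of the marrow, differed by 2.19 ± 0.33, and Il1b by 2.24 ± 0.53. Leaving out arrays ended the call of Il1b (without leukemia 1 or 3, any 1 pool, or whole marrow 3, adjusted p up to 0.105), and so did the fit of the 2 groups alone. Here and later such lists name left-out arrays, and other scalings or fits ended many of the same calls. The 2 members without a call were the receptor Csf3r, at 1.01 ± 0.37 with overlapping groups, and Ptgs2. The latter was at -0.94, with the 3 leukemias below the 3 pools. Against wild type whole marrow the same list went the other way, with 19 genes lower in the leukemias, 0 higher, and all 28 lower in the pools. In those contrasts 9.93% of all genes were lower in the leukemias and 13% in the pools. The summed intensity of the 28 genes was 41210, 25000 and 38370 in the leukemias, 4793, 1862 and 3650 in the pools and 66210 to 79230 in whole marrow. The summed level of the leukemias thus lay between those of the depleted and the undepleted normal marrow. Leaving out 1 array or changing the fit left 22 to 26 genes of the list higher. In the fit of the 2 groups alone and without whole marrow 1, 1 gene of the list was lower.

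Genes of primary granules and promyelocytes, the stage before, gave 4 calls. Of 22 measured, 3 were higher (13.6%, against 2.95% of all genes) and 1 lower (4.55%, against 5.74%), and the median difference was -0.21. Without leukemia 2 the higher count was 7, and after 75th percentile centring it was 5. Mpo, myeloperoxidase, read 10.90, 10.10 and 10.87 in the leukemias and 11.50, 11.06 and 11.40 in the pools, with the 3 leukemias below the 3 pools but without a call (-0.70 ± 0.22, adjusted p = 0.0927). Elane, neutrophil elastase, read 10.64, 9.85 and 10.82 in the leukemias and 11.05, 10.33 and 10.77 in the pools and differed by -0.28 ± 0.27, with overlapping groups. Prtn3 differed by -0.17 ± 0.43 and Ctsg by -0.71 ± 0.32, also without a call. The 3 higher genes were Lyz2 (2.55 ± 0.38) and Lyz1 (1.25 ± 0.15), the lysozymes, and Hp, haptoglobin (2.50 ± 0.37). The lower gene was Nkg7, a granule protein of cytotoxic cells, at -1.27 ± 0.33 (adjusted p = 0.0499). That call was lost without leukemia 1, 2 or 3, without pool 1 or 3, or without whole marrow 1 or 2. Cyclic loess, quantile normalization and the fit of the 2 groups alone ended it too. The regulators of granulocyte fate Cebpa (-0.02 ± 0.38), Cebpe (0.87 ± 0.36) and Gfi1 (-0.41 ± 0.33) had no call, with 95% intervals of -0.88 to 0.85, 0.06 to 1.69 and -1.15 to 0.33.

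Genes of monocytes, macrophages and dendritic cells were mixed. Of 38 measured, 14 were higher in the leukemias (36.8%, against 2.95% of all genes) and 2 lower (5.26%, against 5.74%), with a median of 0.96. The complement C1q chains, made by tissue macrophages, were at background in the pools. C1qb read 9.26, 6.97 and 9.34 in the leukemias and 4.47, 4.35 and 4.34 in the pools. C1qc read 8.31, 5.96 and 8.69 in the leukemias and 4.02, 4.15 and 4.09 in the pools. Fcgr4 read 10.13, 6.28 and 10.53 in the leukemias and 4.58, 4.31 and 4.56 in the pools. All 3 leukemias lay above all pools, by 4.14 ± 0.54, 3.56 ± 0.59 and 4.50 ± 0.95, and leukemia 2 was the lowest in each, by over 2 log2 units. Treml4 (2.70 ± 0.47), the F4/80 antigen Adgre1 (2.62 ± 0.58), the cathepsin Ctss (2.28 ± 0.42), C1qa (2.07 ± 0.40) and the lysosomal Cd68 (1.73 ± 0.31) were also higher.

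The efferocytosis receptors Axl (1.24 ± 0.17) and Mertk (1.12 ± 0.16), which bind dying cells, were higher, as was the mannose receptor Mrc1 (0.81 ± 0.19) and the macrophage lectin Siglec1 (0.54 ± 0.10), each from a pool level under the median intensity. Of the same list, Ccr2 differed by 1.54 ± 0.49 (adjusted p = 0.0923), F13a1 by 1.08 ± 0.36 (adjusted p = 0.106), Csf1r by 0.78 ± 0.38 (adjusted p = 0.279) and Ms4a6c by 0.67 ± 0.36 (adjusted p = 0.335), and these 4 had no call. The 2 lower genes were Bst2 (-0.69 ± 0.15), a plasmacytoid cell and interferon-induced antigen, and Zbtb46 (-0.45 ± 0.11), a factor of conventional dendritic cells. Other dendritic cell genes had no call, with Clec9a at -1.37 ± 0.38 (adjusted p = 0.0634) and Flt3, the receptor that dendritic precursors need, at -1.03 ± 0.28 (adjusted p = 0.0591), both below the pools in each leukemia. The red pulp macrophage markers Vcam1 (0.95 ± 0.28, adjusted p = 0.0709) and Cd163 (-0.08, near background) had no call. Without leukemia 2, 21 of the 38 were higher, and without pool 1, 9 were. The fit of the 2 groups alone did not call Fcgr4, Adgre1, C1qa, Mrc1 or Zbtb46. Single arrays decided the call of Fcgr4 (without leukemia 1 or 3, or any 1 pool, adjusted p up to 0.0739), Adgre1 (without leukemia 1 or 3, any 1 pool, or whole marrow 1, adjusted p up to 0.0935), C1qa (without leukemia 3, or pool 1 or 3, adjusted p up to 0.0638), Mrc1 (without leukemia 2, any 1 pool, or whole marrow 1 or 3, adjusted p up to 0.106), Siglec1 (without pool 1, adjusted p up to 0.053) and Zbtb46 (without leukemia 2 or 3, pool 2 or 3, or whole marrow 1 or 3, adjusted p up to 0.118), where each array was left out alone and the adjusted p is the highest over all alternatives, here and later.

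**Figure D2:**
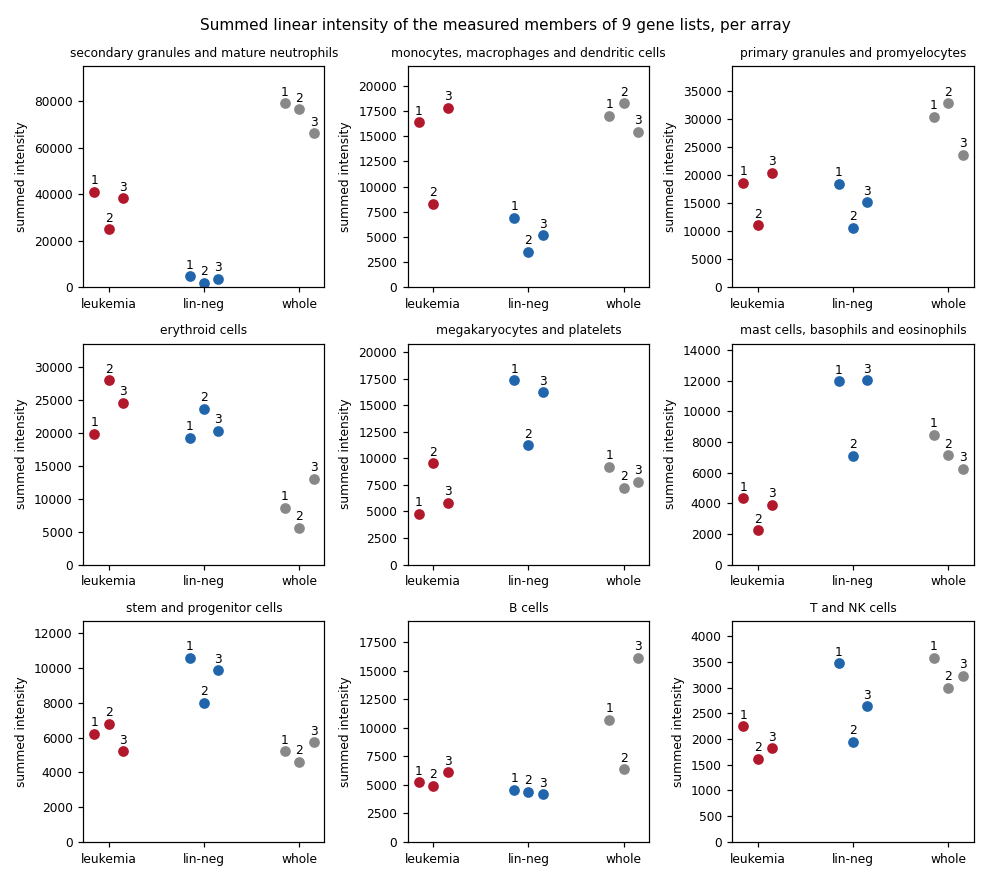
Summed linear intensity of the measured members of 9 cell type lists in each array, with the array number beside each point and y axes that start at 0. The neutrophil sums were 25000 to 41210 in the leukemias and 1862 to 4793 in the pools, while the erythroid sums overlapped at 19840 to 27970 and 19240 to 23640.

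Megakaryocyte and platelet genes were lower in part. Of 24 measured, 8 were lower in the leukemias (33.3%, against 5.74% of all genes) and 0 higher, with a median of -1.02. The 3 leukemias lay below the 3 pools for 12 of the 24, against 16.3% of all genes. Ppbp read 5.58, 7.74 and 7.55 in the leukemias and 12.34, 11.67 and 12.10 in the pools, the largest deficit of any gene by the named rule, at -5.08 ± 0.51 (adjusted p = 0.00127). Gp9 read 5.94, 6.70 and 6.49 in the leukemias and 9.95, 9.23 and 9.80 in the pools, and Tubb1 read 5.46, 7.27 and 6.60 in the leukemias and 9.90, 8.74 and 9.77 in the pools. The 3 leukemias were below all 3 pools for both genes, which differed by -3.28 ± 0.23 (adjusted p = 0.00037) and -3.02 ± 0.46 (adjusted p = 0.00661). Itgb3, the beta chain of the fibrinogen receptor, differed by -2.80 ± 0.30, and Vwf, von Willebrand factor, by -1.87 ± 0.29. Mpig6b (-2.20 ± 0.34), Clec1b (-1.89 ± 0.32) and P2rx1 (-1.61 ± 0.23) made up the 8.

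Several genes of the same lineage had no call. Itga2b, the alpha chain that pairs with Itgb3, read 7.06, 9.15 and 7.90 in the leukemias and 8.76, 7.92 and 8.76 in the pools. Pf4, platelet factor 4, read 7.37, 10.08 and 9.12 in the leukemias and 10.67, 9.88 and 10.60 in the pools. Leukemia 2 was the highest of the leukemias for both and lay above the lowest pool, so the groups overlapped (-0.44 ± 0.47 and -1.53 ± 0.57). Gp5 (0.52 ± 0.28), Thbs1 (0.01 ± 0.48), Plek (0.18 ± 0.24) and the GATA partner Zfpm1 (-0.05 ± 0.33) had no call, with intervals of -0.12 to 1.15, -1.08 to 1.10, -0.36 to 0.72 and -0.82 to 0.71. The summed intensity of the list was 4751, 9514 and 5787 in the leukemias, 17330, 11210 and 16210 in the pools and 7209 to 9199 in whole marrow. Against whole marrow 8 of the list were lower in the leukemias and 5 higher, where 9.93% and 14.6% of all genes were, and in the pools 16 were higher and 3 lower, where 21.7% and 13% of all genes were.

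Most of the mast cell, basophil and eosinophil genes measured were lower. Of 24 measured, 14 were lower (58.3%, against 5.74% of all genes) and 1 was higher (4.17%, against 2.95%), with a median of -1.31. Mcpt8 read 8.21, 6.04 and 7.14 in the leukemias and 11.26, 10.63 and 11.33 in the pools. Prss34 read 7.58, 6.12 and 7.17 in the leukemias and 10.83, 9.95 and 10.90 in the pools. Epx read 5.33, 4.51 and 5.26 in the leukemias and 8.98, 8.37 and 9.56 in the pools, under the median intensity in the leukemias on average. No leukemia reached any pool for these 3 genes, which differed by -3.95 ± 0.48 (adjusted p = 0.00285), -3.60 ± 0.39 (adjusted p = 0.0017) and -3.94 ± 0.35 (adjusted p = 0.000886), and leukemia 2 was the lowest of the leukemias in each. The IgE receptor chains Fcer1a (-3.16 ± 0.34) and Ms4a2 (-2.82 ± 0.28) were lower, while the gamma chain Fcer1g, which other Fc receptors also use, had no call (0.93 ± 0.29, adjusted p = 0.0928). The eosinophil granule genes Prg2 (-2.68 ± 0.30), Prg3 (-2.15 ± 0.33) and Ear6 (-2.58 ± 0.37), the basophil antigen Cd200r3 (-2.27 ± 0.26) and the cytokine Il4 (-0.72 ± 0.09) were lower as well. The connective tissue mast cell proteases Cma1 (0.03), Tpsab1 (-0.05) and Tpsb2 (0.07) were near background in both groups. Against whole marrow, which had not been depleted, 13 of the 24 were lower in the leukemias and 0 higher, where 9.93% and 14.6% of all genes were. Leaving out arrays ended the call of Cpa3 (without leukemia 3, or pool 1 or 3, adjusted p up to 0.0897) and Ccr3 (without leukemia 1 or 2, or any 1 pool, adjusted p up to 0.0969), and Ccr3 was the 1 higher gene (0.68 ± 0.15). Cpa3 had no call in the fit of the 2 groups alone either.

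The promoters of those lower genes are shown because GATA factors are known regulators of basophils, eosinophils and mast cells, and because Gata2, which is among them, had no call in this contrast. The motif AGATAA and its reverse complement, one form of the GATA site, were searched on both strands in the 300 bases from 250 before to 50 after the start of the first RefSeq entry of 15614 genes (GRCm38.p6). The motif occurred in 9.55% of all promoters, in 7.37% of those of higher genes and in 7.67% of those of lower genes. It occurred in 8 of 21 promoters of the mast cell, basophil and eosinophil list. The megakaryocyte list had it in 6 of 20 and the erythroid list in 8 of 20. It was not particular to these lists, with 5 of 25 in the neutrophil list, whose genes were mostly higher. The heme and iron list had it in 3 of 15, the MHC class II list in 2 of 5 and the primary granule list in 0 of 17. Differences between lists were not tested. Of the 12 lowest genes 3 had it, and of the 11 highest genes with an entry 2 had it. In the sequences, the 250 bases before the start are printed 5′ to 3′ on the strand of the gene with the motif in capitals. Fcer1a lies on the minus strand at chr1:173227230-173227479, Cpa3 on the minus strand at chr3:20242182-20242431, Prss34 on the plus strand at chr17:25298144-25298393, Chil3 on the minus strand at chr3:106167565-106167814 and Ltf on the plus strand at chr9:111019042-111019291. The first 3 belong to lower genes and the others to higher genes, with the first base of the motif 92, 46, 31, 122 and 32 bases before the start.
Fcer1a: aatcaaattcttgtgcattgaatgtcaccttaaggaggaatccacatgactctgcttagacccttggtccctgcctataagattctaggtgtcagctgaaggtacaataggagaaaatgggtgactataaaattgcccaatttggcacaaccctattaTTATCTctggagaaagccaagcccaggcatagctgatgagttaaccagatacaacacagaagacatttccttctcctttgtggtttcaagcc
Cpa3: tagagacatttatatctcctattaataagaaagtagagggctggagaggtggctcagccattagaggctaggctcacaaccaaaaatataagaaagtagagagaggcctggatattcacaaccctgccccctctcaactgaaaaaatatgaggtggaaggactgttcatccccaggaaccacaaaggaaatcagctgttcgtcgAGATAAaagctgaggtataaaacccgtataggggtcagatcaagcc
Prss34: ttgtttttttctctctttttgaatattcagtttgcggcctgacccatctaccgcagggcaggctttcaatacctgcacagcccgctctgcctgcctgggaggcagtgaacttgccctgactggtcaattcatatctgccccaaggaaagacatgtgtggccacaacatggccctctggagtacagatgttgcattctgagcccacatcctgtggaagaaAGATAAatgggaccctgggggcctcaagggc
Chil3: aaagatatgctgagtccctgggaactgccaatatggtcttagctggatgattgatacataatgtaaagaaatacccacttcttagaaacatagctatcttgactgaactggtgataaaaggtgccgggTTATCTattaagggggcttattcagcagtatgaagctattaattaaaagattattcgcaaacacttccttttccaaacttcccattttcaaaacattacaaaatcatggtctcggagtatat
Ltf: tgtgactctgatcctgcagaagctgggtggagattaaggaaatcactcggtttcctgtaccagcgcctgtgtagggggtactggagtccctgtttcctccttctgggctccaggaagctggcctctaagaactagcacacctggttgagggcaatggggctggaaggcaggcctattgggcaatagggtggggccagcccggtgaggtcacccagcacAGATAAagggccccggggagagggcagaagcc
A match is a string of letters and is not evidence of binding. The ETS string CCGGAAG was in 12.5% of all promoters, 6.11% of those of higher genes and 14.4% of those of lower genes, and the E-box CACGTG in 8.38%, 7.79% and 10.2%.

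About as many stem and progenitor genes were lower in the leukemias as had no call. Of 33 measured, 16 were lower (48.5%, against 5.74% of all genes) and 0 higher, with a median of -0.76, and 23 of the 33 had the 3 leukemias below the 3 pools, against 16.3% of all genes. Meis1, the homeobox cofactor of Hox proteins, read 5.28, 4.81 and 5.14 in the leukemias and 8.08, 7.14 and 7.86 in the pools. Cd34, the progenitor surface sialomucin, read 7.35, 6.32 and 6.94 in the leukemias and 9.76, 8.86 and 9.50 in the pools. Kit, the receptor of stem cell factor, read 7.32, 7.24 and 7.18 in the leukemias and 9.47, 9.14 and 9.44 in the pools, close together within each group. The groups were apart by -2.61 ± 0.24 (adjusted p = 0.001), -2.50 ± 0.28 (adjusted p = 0.00197) and -2.11 ± 0.12 (adjusted p = 0.000133), or 6.12-fold, 5.67-fold and 4.31-fold. Kit is also a mast cell gene and a member of that list.

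Angpt1, a ligand of the stem cell receptor Tek, differed by -2.46 ± 0.33. The factors Sox4 (-1.88 ± 0.31), Ikzf2 (-1.61 ± 0.28), Hlf (-1.13 ± 0.21), Mycn (-1.17 ± 0.12), Satb1 (-1.17 ± 0.30) and Myb (-0.84 ± 0.14) were lower, as were Dntt (-1.66 ± 0.25), an enzyme of early lymphoid cells, and Esam (-1.33 ± 0.18), a stem cell adhesion molecule. The remaining lower members were Egfl7 (-0.51 ± 0.11), Hmga2 (-0.84 ± 0.11), Hoxa5 and Hoxa10. Flt3 (-1.03 ± 0.28, adjusted p = 0.0591), Cdk6 (-0.62 ± 0.16, adjusted p = 0.0526) and Hoxa9 (-0.76 ± 0.26, adjusted p = 0.123) missed the threshold. Bcl11a (-0.36 ± 0.23), Etv6 (-0.25 ± 0.16) and Mllt3 (-0.11 ± 0.24) had no call. The SLAM receptor Slamf1, a stem cell antigen, read 8.66, 9.93 and 8.78 in the leukemias and 7.87, 7.33 and 8.28 in the pools and was above the pools in each leukemia, without a call (1.29 ± 0.37, adjusted p = 0.0672). Mecom, Procr, Ndn, Nkx2-3 and Robo4 were under the median intensity in both groups, and there the array gives no difference to read. Set beside whole marrow, the pools had 19 of the 33 higher and 2 lower and the leukemias 5 higher and 7 lower, with 21.7% and 14.6% of all genes higher. Cd34 averaged 6.87 ± 0.51 (SD, n = 3) in the leukemias, 7.86 ± 0.12 in whole marrow and 9.37 ± 0.46 in the pools, and Kit averaged 7.25 ± 0.07, 7.58 ± 0.16 and 9.35 ± 0.18. Neutrophil genes, as given before, moved the other way on the same arrays, and the part of the cell mix in the lower stem cell levels was not tested. The threshold was missed by Satb1 (without leukemia 2 or 3, pool 1 or 3, or any 1 whole marrow, adjusted p up to 0.142), Egfl7 (without leukemia 1 or 3, or pool 1 or 2, adjusted p up to 0.0736), Hoxa5 (without leukemia 2 or 3, any 1 pool, or any 1 whole marrow, adjusted p up to 0.149) and Hoxa10 (without any 1 leukemia, pool 1 or 2, or whole marrow 1, adjusted p up to 0.133).

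Of the 22 measured Hox, Meis and related homeobox genes, 6 were lower (27.3%, against 5.74% of all genes) and 0 higher. Beside Meis1 they were genes of the Hoxa cluster, which stem cells use: Hoxa6 (-0.78 ± 0.13), Hoxa7 (-0.72 ± 0.14), Hoxa5 (-0.65 ± 0.16), Hoxa10 (-0.39 ± 0.10) and Hoxa4 (-0.32 ± 0.07). Of these 5 all but Hoxa7 averaged under the median intensity in the leukemias. The Meis partner Pbx3 was at 0.35 ± 0.17 and the Hoxb genes between -0.02 and 0.08, none called. The fit of the 2 groups alone called 2 of the 22, leaving out leukemia 3 called 3, and leaving out pool 1 called 2. Fewer arrays left no call for Hoxa4 (without leukemia 1 or 3, or pool 1 or 3, adjusted p up to 0.194) and Hoxa7 (without pool 1, adjusted p up to 0.0644). The fit of the 2 groups alone ended the calls of Hoxa4, Hoxa5, Hoxa7 and Hoxa10. Cyclic loess and quantile normalization ended that of Hoxa5, and 75th percentile centring those of Hoxa4 and Hoxa10.

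**Figure D3:**
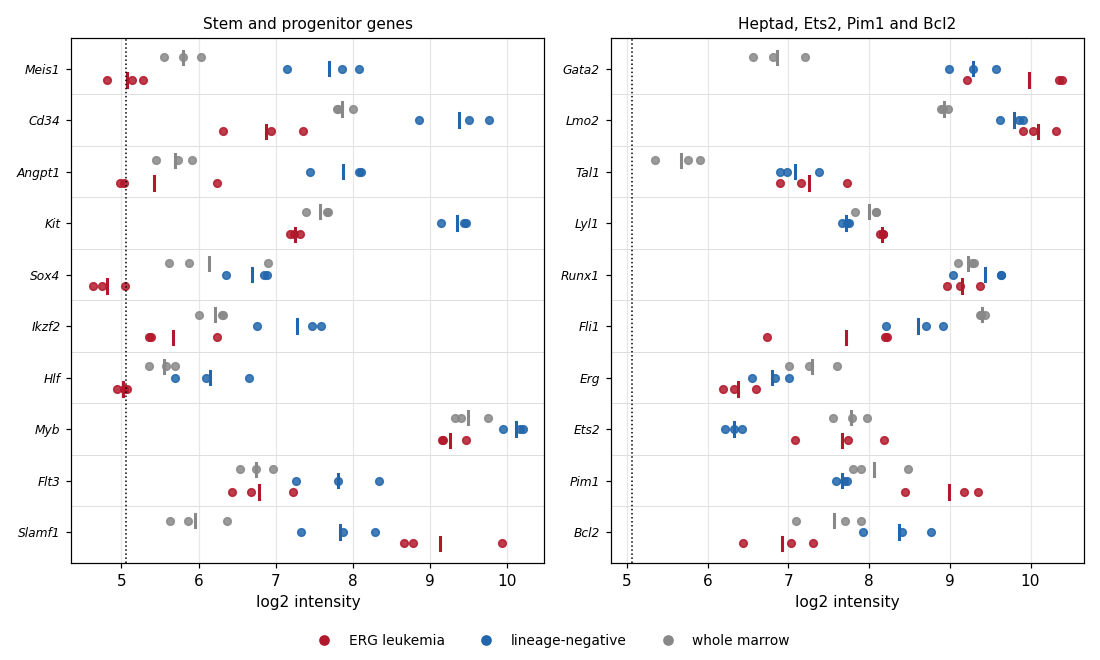
Level of 10 stem and progenitor genes and of the heptad with Ets2, Pim1 and Bcl2 in each of the 9 arrays. The x axis is log2 intensity, dots are arrays, short bars are group means and the dotted line is the median intensity of all probe sets. Kit read 7.18 to 7.32 in the leukemias and 9.14 to 9.47 in the pools, whereas Gata2 and Tal1 overlapped between the groups and lay above whole marrow in both.

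The heptad gave a single call. Of 7 genes 1 was higher (14.3%, against 2.95% of all genes), Lyl1, at 8.17, 8.13 and 8.17 in the leukemias and 7.75, 7.66 and 7.73 in the pools (0.44 ± 0.09, adjusted p = 0.0171), and 0 were lower, with a median of 0.18. Erg itself read 6.60, 6.19 and 6.32 in the leukemias and 7.01, 6.55 and 6.84 in the pools. The groups overlapped and the mean was lower in the leukemias by a difference without a call (-0.43 ± 0.18, adjusted p = 0.197, 95% interval -0.84 to -0.02). The probe set reads the mouse gene, and whether it would read the transgene is not given in the labels, so it is no check of transgene expression. Gata2 read 10.39, 10.35 and 9.21 in the leukemias and 9.29, 8.99 and 9.57 in the pools, overlapping because of leukemia 3 (0.71 ± 0.32, adjusted p = 0.235). Lmo2 (0.29 ± 0.12), Tal1 (0.18 ± 0.23), Runx1 (-0.28 ± 0.17) and Fli1 (-0.89 ± 0.37) had no call, with intervals of 0.02 to 0.56, -0.35 to 0.70, -0.67 to 0.11 and -1.73 to -0.05. Fli1 was lowest in leukemia 2, at 8.20, 6.73 and 8.22 across leukemias 1 to 3. No call was left for Lyl1 without leukemia 3 or any 1 pool, or in the fit with a trend (adjusted p up to 0.0583).

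Across 23 measured ETS family genes, 1 was higher (4.35%, against 2.95% of all genes) and 1 lower (4.35%, against 5.74%). Ets2, a factor of myeloid and megakaryocytic cells, read 7.74, 8.19 and 7.08 in the leukemias and 6.32, 6.43 and 6.21 in the pools, above every pool (1.35 ± 0.25, adjusted p = 0.0138). Erf, a repressor of the family, differed by -0.59 ± 0.14 (adjusted p = 0.0339). Spi1, the PU.1 factor of myeloid cells, read 9.54, 8.21 and 9.79 in the leukemias and 9.01, 7.99 and 8.66 in the pools, overlapping because of leukemia 2 (0.63 ± 0.40, adjusted p = 0.43), and Spib differed by 0.86 ± 0.57 (adjusted p = 0.456). The call was lost for Ets2 (without pool 3, adjusted p up to 0.0504) and Erf (without leukemia 2 or 3, pool 1 or 2, or whole marrow 1 or 3, adjusted p up to 0.115).

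Red cell genes gave a single call between leukemias and pools. Of 27 measured, 1 was higher (3.70%, against 2.95% of all genes), Nfe2 (0.82 ± 0.16, adjusted p = 0.0164), and 0 lower, with a median of 0.16. Both groups were above whole marrow: 22 of the 27 were higher than whole marrow in the leukemias and 20 in the pools, each with 0 lower, against 14.6% and 21.7% of all genes. The higher count against the pools was 4 without leukemia 1 and 2 without whole marrow 2 or 3 or in the fit of the 2 groups alone. Gata1 read 7.59, 9.42 and 8.69 in the leukemias and 8.68, 9.05 and 8.87 in the pools. Klf1, the red cell factor that switches on globin and membrane genes, read 8.22, 8.58 and 8.22 in the leukemias and 8.34, 8.86 and 8.30 in the pools. Epor, the erythropoietin receptor, read 7.57, 8.81 and 8.42 in the leukemias and 8.15, 8.59 and 8.40 in the pools. For each of the 3 the groups overlapped, with differences of -0.30 ± 0.45, -0.16 ± 0.31 and -0.11 ± 0.37 and intervals of -1.32 to 0.72, -0.86 to 0.54 and -0.96 to 0.73, so changes within those intervals cannot be told from none. Leukemia 1 was the lowest leukemia for Gata1 and Epor.

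For several genes used late in red cell maturation, chosen after their values were seen, the leukemia mean lay above the pool mean without a call. Of the 27 red cell genes, 3 had all leukemias above all pools and 1 had them below. The shares over all genes were 11.6% and 16.3%. Alas2, which makes the first step of heme synthesis in red cells, read 8.13, 9.81 and 9.51 in the leukemias and 6.90, 7.57 and 7.08 in the pools, above every pool (1.97 ± 0.53, adjusted p = 0.0546). The membrane skeleton gene Epb42 differed by 1.33 ± 0.45 (adjusted p = 0.11), Tmod1 by 1.60 ± 0.54 (adjusted p = 0.112), the anion exchanger Slc4a1 by 0.53 ± 0.57 (adjusted p = 0.692) and the iron importer Slc25a37 by 0.87 ± 0.33 (adjusted p = 0.162). The membrane skeleton gene Add2 was at -0.87 ± 0.39 (adjusted p = 0.234), below every pool. Of 20 measured heme and iron genes 1 was higher (5%, against 2.95% of all genes) and 0 lower, though 2 were higher without leukemia 1 and without whole marrow 3, and 2 higher with 2 lower without whole marrow 2 and after 75th percentile centring. The 1 called was Hmox1, the heme-degrading oxygenase that macrophages use, which read 7.19, 7.67 and 7.93 in the leukemias and 4.47, 4.41 and 4.34 in the pools (3.19 ± 0.18, adjusted p = 0.000153, at least 9.12-fold since the pools were under the median intensity). In whole marrow Hmox1 averaged 7.81 ± 0.22, close to the leukemias. Uros (-0.87 ± 0.24, adjusted p = 0.0574) and Tfr2 (-0.71 ± 0.20, adjusted p = 0.0646) were below every pool without a call.

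Some growth genes stood below the pools in the leukemias, by under 1 log2 unit. Of 46 measured genes of ribosome biogenesis and other MYC targets, 13 were lower (28.3%, against 5.74% of all genes) and 0 higher, with a median of -0.37. All leukemias lay below all pools for 33 of the 46, against 16.3% of all genes. Grwd1 (-0.77 ± 0.14), Wdr12 (-0.76 ± 0.12) and Utp20 (-0.74 ± 0.16), which assemble ribosomal subunits, were the largest. Wdr12 read 7.58, 7.30 and 7.12 in the leukemias and 8.14, 8.14 and 8.01 in the pools, and every leukemia lay below every pool. Myc read 10.41, 10.83 and 10.44 in the leukemias and 10.82, 10.86 and 10.88 in the pools and differed by -0.29 ± 0.11 (adjusted p = 0.152). In the pools all 46 genes were higher than in whole marrow and in the leukemias 45 were, where 21.7% and 14.6% of all genes were. The call of the 13 depended on the arrays: 3 were called without leukemia 3, and 6, 5 and 7 without pools 1, 2 and 3. The fit of the 2 groups alone called 4 and that with a trend 7. The list's median against the mean of the pools was -0.33, -0.43 and -0.55 in leukemias 1 to 3 and -0.09, 0.23 and -0.14 in pools 1 to 3.

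DNA replication genes showed a median of -0.26, with 5 of 46 lower (10.9%, against 5.74% of all genes) and 0 higher. They were Ccne1, cyclin E (-0.84 ± 0.18), the clamp loaders Rfc3 (-0.57 ± 0.13) and Rfc2 (-0.47 ± 0.12), Mcm10 (-0.49 ± 0.12) and Pole2 (-0.45 ± 0.10). Under the alternatives 0 to 5 of them were called, and without pool 2 the count was 0. Both 75th percentile centring and cyclic loess gave 2. Leaving out leukemia 1, 2 or 3 gave 2, 1 and 1, leaving out pool 1 or 3 gave 1 and 1, and leaving out whole marrow 1 gave 3. Mitosis genes gave few calls, with 2 of 37 higher (5.41%, against 2.95% of all genes) and 0 lower and a median of 0.07. Cyclic loess called 5 higher, while 75th percentile centring, quantile normalization, the fit of the 2 groups alone, brighter genes and a trend called 1. The count was also 1 without any 1 leukemia, any 1 pool or whole marrow 1. Cdc25b, the phosphatase that starts mitosis, read 8.23, 9.57 and 8.85 in the leukemias and 7.08, 7.24 and 7.27 in the pools (1.69 ± 0.30, adjusted p = 0.0121), and Kif11, a spindle motor, differed by 0.29 ± 0.07 (adjusted p = 0.0392). Fewer arrays left no call for Kif11 (without any 1 leukemia, any 1 pool, or whole marrow 1, adjusted p up to 0.139). Mki67 read 10.84, 11.06 and 10.94 in the leukemias and 10.56, 10.76 and 10.65 in the pools, a difference of 0.29 ± 0.10 without a call. The ETS string was in 12 of 37 replication promoters and 11 of 37 ribosome biogenesis promoters, against 12.5% of all promoters. The mitosis list had it in 6 of 30, the ATF4 target list given below in 6 of 24 and the erythroid list in 0 of 20. The E-box was in 10 of 37 ribosome biogenesis promoters, against 8.38% of all promoters. It was in 4 of 15 of the heme and iron list and 2 of 30 of the mitosis list. A tie between these strings and the calls was not tested.

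Among 40 measured genes of kinases, signalling, cell cycle and survival, 5 were higher (12.5%, against 2.95% of all genes) and 6 lower (15%, against 5.74%). Pim1, a serine/threonine kinase that promotes survival and is induced by cytokines, read 8.44, 9.17 and 9.35 in the leukemias and 7.69, 7.72 and 7.59 in the pools. Every leukemia was above every pool (1.32 ± 0.25, adjusted p = 0.0153, 2.5-fold, 95% interval 0.76 to 1.89), and the pools lay close together. In whole marrow Pim1 read 7.80, 8.48 and 7.90. Its relatives Pim2 (-0.19 ± 0.23) and Pim3 (-0.09 ± 0.10) had no call. Fgr, a SRC family kinase of mature myeloid cells, read 7.59, 6.27 and 7.97 in the leukemias and 4.78, 4.42 and 4.76 in the pools (2.63 ± 0.38, adjusted p = 0.00582), while Src itself differed by -1.17 ± 0.11 (adjusted p = 0.000924). Single arrays decided the call of Pim1 (without pool 1 or 3, adjusted p up to 0.0538).

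The survival gene Bcl2 read 7.30, 6.44 and 7.03 in the leukemias and 8.77, 7.92 and 8.41 in the pools, lower in every leukemia (-1.44 ± 0.30, adjusted p = 0.0216). Its death-promoting relatives Bcl2l11, known as Bim (-0.98 ± 0.17), and Bid (-0.41 ± 0.11) were lower too, and the survival genes Mcl1 (0.43 ± 0.11, adjusted p = 0.0554) and Bcl2l1 (0.84 ± 0.31, adjusted p = 0.15) had no call. The cell cycle inhibitors Cdkn1b (0.71 ± 0.16) and Cdkn2c (0.56 ± 0.12) and the cyclin Ccnd3 (0.44 ± 0.08) were higher, Cdk4 was lower (-0.34 ± 0.09), and Cdk6 had no call. Cish, a target of STAT5, read 5.74, 7.17 and 6.53 in the leukemias and 5.48, 5.94 and 5.38 in the pools and differed by 0.88 ± 0.32 (adjusted p = 0.137). Jak2 (-0.05 ± 0.14), Stat5a (0.04 ± 0.15) and Stat5b (0.20 ± 0.10) had no call. Without leukemia 3 the counts on this list were 3 higher and 3 lower, and without pool 1 or pool 3 they were 2 higher and 3 lower. Bid had no call under the other scalings, in the fit of the 2 groups alone, among brighter genes or with a trend. Cdk4 had none after 75th percentile centring, in the fit of the 2 groups alone, among brighter genes or with a trend. Leaving out arrays ended the call of Bcl2 (without leukemia 3, or pool 1 or 3, adjusted p up to 0.0752), Bid (without any 1 leukemia, any 1 pool, or whole marrow 1 or 2, adjusted p up to 0.149), Cdkn1b (without any 1 leukemia, or any 1 pool, adjusted p up to 0.103), Cdkn2c (without leukemia 1 or 3, or pool 1 or 3, adjusted p up to 0.0892) and Cdk4 (without leukemia 2 or 3, any 1 pool, or any 1 whole marrow, adjusted p up to 0.15).

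A list of genes tied to feedback in the RAS and MAP kinase pathway, not all of which restrain it, gave 4 calls. Of 20 measured, 3 were lower (15%, against 5.74% of all genes) and 1 higher (5%, against 2.95%). Cyclic loess and quantile normalization gave 5 lower, and 75th percentile centring, or leaving out leukemia 1 or whole marrow 3, gave 2 higher. Spred1 read 5.93, 5.83 and 5.98 in the leukemias and 7.49, 7.34 and 7.20 in the pools (-1.43 ± 0.13, adjusted p = 0.000845), and Spred2 (-0.68 ± 0.11) and Spry2 (-0.74 ± 0.13) were lower too. All leukemias lay below all pools for Spred1, and in whole marrow it averaged 5.90 ± 0.23, close to the leukemias. The higher gene was the ephrin receptor Epha4 (0.94 ± 0.16), from near background. Dusp10 read 7.33, 9.06 and 7.78 in the leukemias and 6.33, 6.31 and 6.68 in the pools, above each pool, with an adjusted p of 0.0569.

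Of 29 measured cytokine receptors 2 were higher, Cxcr2 (2.19 ± 0.33) and the interleukin 10 receptor Il10ra, which read 7.09, 7.61 and 7.43 in the leukemias and 5.98, 5.27 and 5.73 in the pools (1.72 ± 0.19, adjusted p = 0.00183), and 1 was lower, Kit. The shares were 6.90% higher and 3.45% lower, against 2.95% and 5.74% of all genes. Without leukemia 2, 8 were higher, and without leukemia 1 or pool 2, 2 were lower. Il7r, the lymphoid receptor, was at -1.25 ± 0.51 (adjusted p = 0.189).

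Stress and damage genes gave few calls. Of 28 measured immediate early and stress genes 3 were higher (10.7%, against 2.95% of all genes) and 1 lower (3.57%, against 5.74%). Without leukemia 2 or leukemia 3, and under each of the 3 other scalings, 5 were higher. Atf3 (1.88 ± 0.32), Gadd45b (1.45 ± 0.23) and Klf6 (0.66 ± 0.15) were higher and the heat shock gene Hspa1a was lower (-1.83 ± 0.40). Fosb read 7.95, 8.55 and 4.82 in the leukemias and 8.78, 8.34 and 8.83 in the pools, where leukemia 3 stood far below the others. Of 24 measured p53 targets 5 were higher (20.8%, against 2.95% of all genes) and 1 lower (4.17%, against 5.74%). Ddit4, which restrains mTORC1 and answers to ATF4 too, read 7.69, 7.93 and 7.66 in the leukemias and 5.98, 5.48 and 5.82 in the pools (2.00 ± 0.13, adjusted p = 0.00037), and it was higher than in whole marrow as well, by 2.43. Trp53inp1 (0.85 ± 0.22), Zmat3 (0.82 ± 0.20), Bbc3 (0.58 ± 0.14) and Apaf1 (0.51 ± 0.12) made up the 5, and Tnfrsf10b was the lower gene (-0.49 ± 0.08). The p53 count was 1 to 3 without any 1 of the 9 arrays: 2, 2 and 3 without leukemias 1 to 3, 2, 1 and 1 without pools 1 to 3, and 1, 2 and 2 without whole marrow 1 to 3. Of 28 ATF4 targets, Ddit4 was higher and the serine synthesis gene Phgdh lower (-1.03 ± 0.24), and the list had 0 to 2 calls each way under the alternatives. That is 3.57% each way, against 2.95% of all genes higher and 5.74% lower. The threshold was missed by Klf6 (without leukemia 1 or 2, pool 2 or 3, or whole marrow 1, adjusted p up to 0.0732), Hspa1a (without leukemia 1 or 3, or pool 1 or 2, adjusted p up to 0.0939), Zmat3 (without leukemia 1 or 2, any 1 pool, or any 1 whole marrow, adjusted p up to 0.119), Bbc3 (without leukemia 3, any 1 pool, or any 1 whole marrow, adjusted p up to 0.124), Apaf1 (without leukemia 1 or 2, any 1 pool, or whole marrow 1, adjusted p up to 0.0967), Trp53inp1 (without any 1 leukemia, pool 2 or 3, or any 1 whole marrow, adjusted p up to 0.112) and Phgdh (without leukemia 1 or 2, any 1 pool, or whole marrow 1, adjusted p up to 0.108).

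Interferon targets gave few calls, in both directions. Of 31 measured interferon targets 2 were higher, Rsad2 (2.06 ± 0.53, adjusted p = 0.0482) and Ifit3 (1.57 ± 0.27, adjusted p = 0.0115), and 2 lower, Usp18, the enzyme that removes ISG15 (-1.37 ± 0.18, adjusted p = 0.00375), and Bst2 (-0.69 ± 0.15, adjusted p = 0.0285). That is 6.45% each way, against 2.95% of all genes higher and 5.74% lower. The higher count was 5 without leukemia 2, 4 without whole marrow 3, 1 without leukemia 3, any 1 pool or whole marrow 1, 6 after 75th percentile centring, 1 after quantile normalization and 5 among brighter genes. The lower count was 1 without leukemia 1 or 2, pool 1 or 2, or after cyclic loess. Of 9 measured class II presentation genes, H2-Aa (1.85 ± 0.48, adjusted p = 0.0494) and H2-Eb1 (1.45 ± 0.35, adjusted p = 0.0403) were higher (22.2%, against 2.95% of all genes). The fit of the 2 groups alone called neither. Of that list 4 were higher without leukemia 2, and 1 was lower without whole marrow 1 or 2, after 75th percentile centring, in the fit of the 2 groups alone, among brighter genes and with a trend. H2-Aa read 8.95, 7.36 and 8.65 in the leukemias and 7.26, 5.86 and 6.30 in the pools, and the call was lost for H2-Aa (without leukemia 1 or 3, pool 2 or 3, or any 1 whole marrow, adjusted p up to 0.155), H2-Eb1 (without leukemia 1 or 3, any 1 pool, or whole marrow 1 or 3, adjusted p up to 0.128), Rsad2 (without leukemia 2 or 3, any 1 pool, or whole marrow 1 or 3, adjusted p up to 0.139) and Bst2 (without leukemia 1 or 2, or pool 1 or 2, adjusted p up to 0.091). Cholesterol synthesis had Fdft1 higher (0.87 ± 0.21) and Dhcr7 lower (-0.72 ± 0.10) of 20, which is 5% each way. Of 19 glycolysis genes the lactate exporter Slc16a3 was higher at 7.74, 7.33 and 7.46 in the leukemias and 6.03, 5.68 and 5.87 in the pools (1.65 ± 0.17, adjusted p = 0.00158), and Pdk1 was lower (-0.50 ± 0.13). That is 5.26% each way, and for both lists the shares of all genes were 2.95% higher and 5.74% lower. No call was left for Fdft1 (without leukemia 1 or 2, pool 1 or 3, or whole marrow 1, adjusted p up to 0.118) and Pdk1 (without any 1 leukemia, any 1 pool, or any 1 whole marrow, adjusted p up to 0.139).

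B cell genes were mostly lower than in whole marrow in both groups, and T and NK cell genes mostly in the leukemias. Lymphoid genes gave few calls between leukemias and pools. Of 29 measured B cell genes 1 was higher, Bank1 (1.73 ± 0.42, adjusted p = 0.0379, from under the median intensity), and 1 lower, Dntt. That is 3.45% each way, against 2.95% of all genes higher and 5.74% lower. The higher count was 5 without whole marrow 2, 2 without leukemia 2 and 3 in the fit of the 2 groups alone, and 0 without leukemia 1 or 3, any 1 pool or whole marrow 1. Of 31 T and NK cell genes 3 were lower (9.68%, against 5.74% of all genes): the co-stimulatory receptor Cd27, which multipotent progenitors also carry (-2.16 ± 0.34, adjusted p = 0.00765), Nkg7, and Xcl1 (-0.66 ± 0.15). Of that list 1 was lower without leukemia 2 or 3, pool 1 or 3, or after cyclic loess. Against whole marrow 25 of the 29 B cell genes were lower in the leukemias and 22 in the pools, and of the T and NK cell genes 20 and 13 were, against 9.93% and 13% of all genes. The 11 measured plasma cell genes gave 0 calls in limma, and Jchain read 8.51, 5.94 and 9.83 in the leukemias and 9.70, 8.80 and 9.80 in the pools, low in leukemia 2. Of 27 stromal, bone and endothelial genes, Tie1 (-1.51 ± 0.19) and Pdgfrb (-1.28 ± 0.20) were lower and Mgp (1.07 ± 0.23) and Acta2 (0.82 ± 0.21) higher, all 4 with the lower group under the median intensity. That is 7.41% each way, against 2.95% of all genes higher and 5.74% lower. The call was lost for Bank1 (without leukemia 1 or 3, any 1 pool, or whole marrow 1, adjusted p up to 0.115), Xcl1 (without any 1 leukemia, or any 1 pool, adjusted p up to 0.11), Mgp (without any 1 pool, adjusted p up to 0.0828) and Acta2 (without leukemia 1 or 3, any 1 pool, or whole marrow 2, adjusted p up to 0.143).

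Sex-linked genes stood apart between the groups, and the labels give no sex. The Y-linked genes Eif2s3y (4.18, 4.15 and 3.98 in the leukemias and 8.18, 8.23 and 7.89 in the pools), Uty (4.13, 4.13 and 4.01 in the leukemias and 7.63, 7.68 and 7.42 in the pools) and Kdm5d (4.16, 4.42 and 4.23 in the leukemias and 6.82, 6.50 and 6.39 in the pools) were at background in the leukemias and well above it in the pools. Xist, which female cells express, read 11.00, 11.05 and 10.59 in the leukemias and 10.02, 8.80 and 10.07 in the pools, so the pools had both Y-linked and Xist signal well above the median intensity. Among whole marrow arrays Eif2s3y read 4.06, 8.53 and 4.09, so array 2 alone of them had Y-linked signal. Eif2s3y lost its call without any 1 leukemia, any 1 pool, or whole marrow 1 (adjusted p up to 0.127). Kdm5d lost it without any 1 leukemia or any 1 pool (adjusted p up to 0.118). Uty lost it without leukemia 1 or 3, or any 1 pool (adjusted p up to 0.0775). Their differences stayed between -4.10 and -3.91, -2.39 and -2.17, and -3.57 and -3.43 under all alternatives. None lost its call in the fit of the 2 groups alone. The main fit also takes in the spread of whole marrow, where array 2 stood apart for Eif2s3y. Sex and leukemia therefore cannot be told apart for Y-linked genes, and the part of sex in the other genes was not tested.

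**Figure D4:**
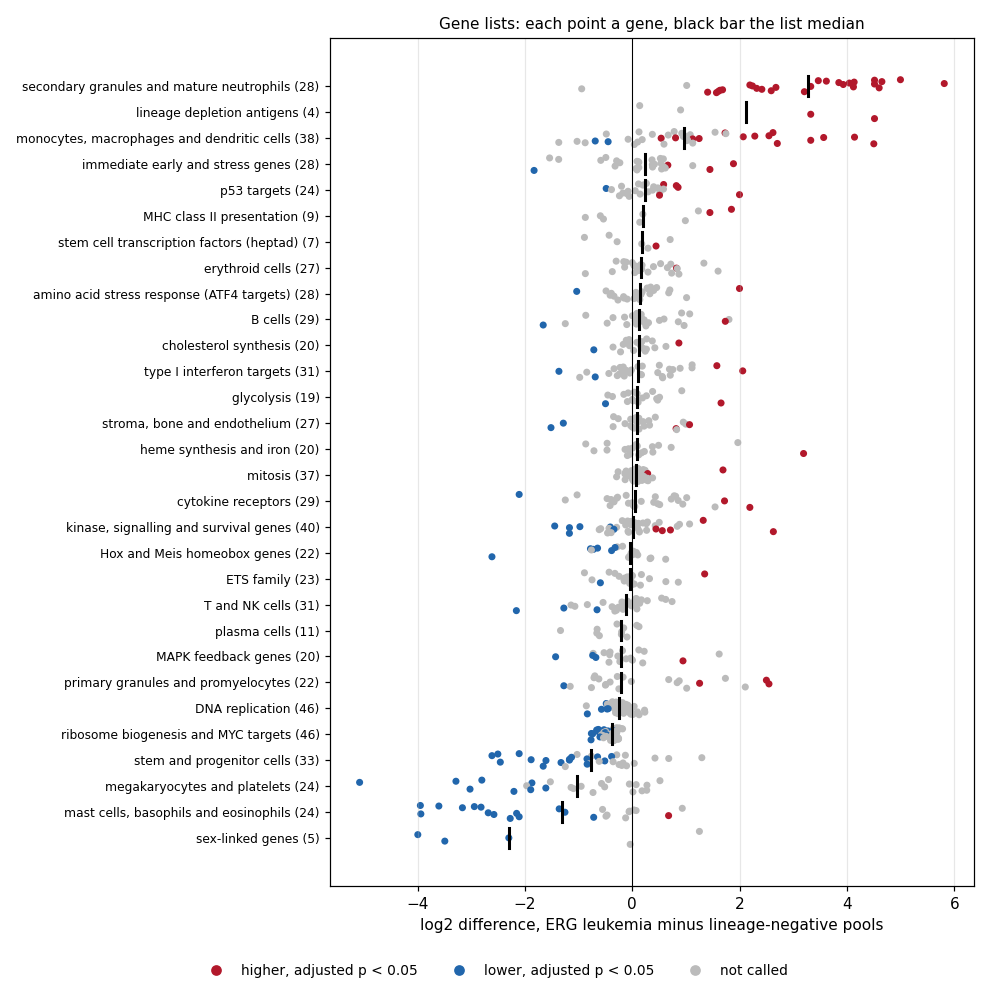
Log2 difference between leukemias and pools for each measured member of the 30 gene lists, ordered by list median, with the number of measured genes in parentheses. Each point is a gene, red and blue points are called higher and lower at an adjusted p under 0.05, grey points are not called, and the black bar is the list median. The neutrophil list has a median of 3.26 and the mast cell, basophil and eosinophil list of -1.31.

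The leukemia arrays, of 1 mouse each, varied among themselves more than the pools, which average 3 mice each. Genes with an SD over 1 log2 unit numbered 164 in the leukemias, 15 in the pools and 69 in whole marrow. Pooling lowers the spread, so the count of the pools is not a like measure, and whole marrow is the other group of single mice. The median SD over all genes was 0.127 in the leukemias, 0.101 in the pools and 0.127 in whole marrow. Leukemia 2 was the array farthest from the group's others in 108 of the 164, and lay below them in 94. Of the 8 genes with the largest SD in the leukemias, all but Ly6a2 and Allc show this. Cd300e, a myeloid receptor, read 8.60, 4.66 and 9.11 in leukemias 1 to 3 and 4.44, 4.63 and 4.55 in the pools. Fcrl5, an Fc receptor-like protein, read 7.85, 4.20 and 8.78 in the leukemias and 3.92 to 4.08 in the pools. Leukemia 2 was close to the pools for both, and the other leukemias were over 3 log2 units higher.

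Adamdec1, a protease of macrophages and dendritic cells, read 7.50, 4.79 and 9.19 in the leukemias and 4.41, 4.45 and 4.30 in the pools. Lipg, endothelial lipase, read 7.97, 4.61 and 8.73 in the leukemias and 4.26, 4.33 and 4.23 in the pools. Cd72, a receptor of B cells, read 9.13, 5.08 and 9.54 in the leukemias and 6.61, 5.60 and 6.13 in the pools, with leukemia 2 below every pool. Fcgr4 was given with the macrophages. In these genes leukemias 1 and 3 lay far above leukemia 2. Ly6a2 read 6.59, 10.39 and 11.20 in leukemias 1 to 3, with leukemia 1 within the range of the pools, and Allc read 8.37, 4.10 and 4.18 in the leukemias and 3.97, 4.01 and 4.06 in the pools, where leukemia 1 alone was high. Of these 8 genes only Fcgr4 passed the threshold against the pools. The summed intensity of the 38 monocyte and macrophage genes was 16360, 8302 and 17800 in leukemias 1 to 3 and 6916, 3525 and 5181 in pools 1 to 3, that of primary granule genes 18610, 11050 and 20450 against 18500, 10610 and 15200, and that of erythroid genes 19840, 27970 and 24540 against 19240, 23640 and 20290. Leukemia 2 and pool 2 thus had the lowest myeloid and the highest red cell sums of their groups, although array numbers do not pair leukemias with pools.

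**Figure D5:**
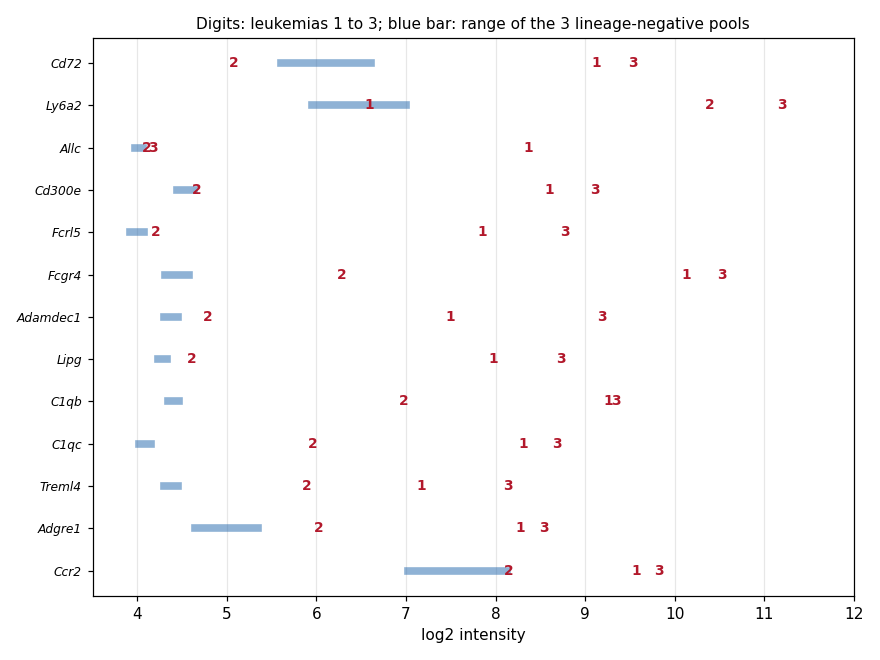
Level of the 8 most variable genes among leukemias and of 5 macrophage and monocyte genes. The x axis is log2 intensity, red digits mark leukemias 1 to 3 and the blue bar spans the 3 pools. Leukemia 2 lies at or near the pools for Cd300e, Fcrl5, Adamdec1 and Lipg, at 4.20 to 4.79, where leukemias 1 and 3 read 7.50 to 9.19.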

How the data were processed

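RNA of 9 marrow samples was hybridised to Affymetrix whole-transcript arrays. The authors summarised probe sets with RMA in Partek, per the submitters' processing notes, with versions and genome build not given in the sources used here. The deposited values are linear intensities, where a log2 scale had been assumed, and they were put on the log2 scale here. Of 28853 probe sets, 21789 carry 1 gene symbol, 1621 carry several and 5443 have none. Only those with 1 symbol were used, and where a gene had several, that of the largest mean level in all 9 arrays was kept, which left 19938 genes, 19856 of them in RefSeq. RMA normally equalises the arrays' distributions, so a shift of most genes in one direction would not be seen.

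One limma fit (3.58.1, R 4.3.3) of the 3 group means over all 9 arrays gave moderated tests, without a trend and adjusted by Benjamini-Hochberg over all genes, 2-sided. The number of arrays limits the precision. Nothing in the labels says how many cages or preparation days lie behind a group, so p-values measure the spread between these arrays. The fit takes 1 spread per gene for all 3 groups, although a pool averages 3 mice and the other arrays hold 1 mouse each. Figures were drawn with matplotlib 3.10.9.

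The groups, gene lists and members were chosen with earlier results of these data known. Genes named by rule were Erg, Pim1, the 12 largest differences each way, the 3 largest called differences of each list and the 8 genes of largest SD in the leukemias. Other list members were named after their values were seen. Of 788 listed symbols 708 were measured. Alternatives were other scalings, the 2 groups alone, brighter genes alone, a trend, mean probe sets and leaving out each array. The script was tested on simulated data.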

Additional observations from a re-analysis of the deposited data

How the results depend on the processing

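Of 589 higher and 1144 lower genes in all, the counts became 715 and 909 after 75th percentile centring, 719 and 881 after cyclic loess, 621 and 1152 after quantile normalization, 418 and 806 in a fit of the 2 groups alone, 651 and 1126 among brighter genes, 587 and 924 with a trend and 591 and 1147 with mean probe sets. Leaving out 1 array gave 268 to 827 higher and 490 to 1174 lower genes. The higher count moved over 1.5 times without pool 1 (314), pool 2 (334) or pool 3 (268), and the lower count without leukemia 3 (607), pool 1 (490), pool 2 (720) or pool 3 (690). Without leukemia 2 there were 827 higher and 808 lower genes, which turned the direction that led. Of 192 called genes that were followed, 120 had a call under all 16 alternatives, and none reversed. The lists of lost calls given with the genes mostly name left-out arrays, and other scalings or fits ended many of the same calls.
No paired analysis was possible because the leukemias carry no replicate number in the labels that could pair them with a pool. Signal near the array's background limits the sizes of differences, and depletion, leukemia and sex cannot be told apart where they move together.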

Other observations

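Several genes outside the lists, chosen after their values were seen, were higher in the leukemias. Pattern receptors and lectins of macrophages and monocytes were among them. Tlr13, a sensor of bacterial RNA, read 9.25, 8.03 and 9.37 in the leukemias and 5.29, 4.45 and 4.74 in the pools (4.06 ± 0.36, adjusted p = 0.000845 in limma), so each leukemia lay above each pool. Tlr8 differed by 3.20 ± 0.43, and the lectin receptors Clec4a1 by 3.87 ± 0.56, Clec4a2 by 2.42 ± 0.35 and Clec4a3 by 3.80 ± 0.59. Ms4a4a (3.66 ± 0.45) and Ms4a6d (3.36 ± 0.83, adjusted p = 0.0424) belong to a family of membrane proteins of myeloid cells, and Pilra (3.76 ± 0.47) and Cd33 (2.52 ± 0.29) are inhibitory receptors. Slfn4 (3.93 ± 0.51) and Slfn1 (3.38 ± 0.27) of the Schlafen family, the neutrophil granule protein Olfm4 (3.90 ± 0.54), the acute phase proteins Orm1 (3.64 ± 0.45) and Saa3 (2.49 ± 0.60), fibronectin Fn1 (3.29 ± 0.36) and the scavenger receptor Cd36 (2.68 ± 0.42) were higher too. Cda, cytidine deaminase, read 7.88, 9.83 and 8.66 in the leukemias and 4.34, 8.76 and 6.25 in the pools, and its difference of 2.34 ± 0.96 had an adjusted p of 0.188, with pool 2 far above the other pools.

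Genes outside the lists that were lower, again chosen after their values were seen, were of several kinds. Tet1, which oxidises methylated cytosine, read 5.38, 5.52 and 5.26 in the leukemias and 8.17, 7.30 and 7.76 in the pools (-2.36 ± 0.23, adjusted p = 0.00104 in limma). Smo, the signal transducer of the Hedgehog pathway, differed by -2.17 ± 0.20. Platelet genes Slc6a4 (the serotonin transporter, -2.54 ± 0.37), Itga2 (a collagen receptor, -2.46 ± 0.26) and Cavin2 (-2.47 ± 0.20) were lower, as was Slc18a2, the transporter that loads amines into granules (-1.96 ± 0.27). The cytokine genes Il6 (-1.80 ± 0.21), Hgf (-1.80 ± 0.42) and Ccl3 (-2.05 ± 0.35) and the lipoxygenase Alox15 (-1.78 ± 0.33) were lower. The imprinted genes Grb10 (-1.71 ± 0.19) and Peg10 (-1.68 ± 0.12) and the IGF-binding protein Igfbp4 (-1.83 ± 0.41) were lower as well. Among these genes single arrays ended the calls of Ms4a6d (without leukemia 1 or 3, or pool 1, 2 or 3, or whole marrow 1 or 3, adjusted p up to 0.126), Saa3 (without leukemia 1 or 3, or pool 1, 2 or 3, or whole marrow 1 or 3, adjusted p up to 0.116), Hgf (without leukemia 2 or 3, or pool 1 or 3, adjusted p up to 0.11), Alox15 (without pool 1 or 3, adjusted p up to 0.0559) and Igfbp4 (without leukemia 3, or pool 1 or 3, or whole marrow 1, adjusted p up to 0.106).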
